A study of Mus musculus with 26 samples.

Results

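EryCP and Sca1hi are fractions sorted from EML, a mouse haematopoietic progenitor cell line, and this account compares their transcripts across all genes on microarrays. The comparison used 6 of the 26 arrays of the series, 3 for EryCP and 3 for Sca1hi, chosen by their labels: the first EryCP arrays, without those marked as repeats, and all Sca1hi arrays. Each of 3 slides carried 1 array of EryCP, 1 of Sca1hi and 1 of a further fraction labelled CR Sca1lo, so EryCP was set against Sca1hi within slides. The CR Sca1lo arrays also entered the fit, which so held 9 arrays. Cells of every fraction were sorted on the surface markers Sca1, CD34 and cKit, and came from cultures in medium with horse serum and medium conditioned with stem cell factor (SCF), per the labels. The labels name erythropoietin for other samples of the series, not for these. The line depends on SCF and is known to have been made by a retrovirus that carries a dominant-negative retinoic acid receptor alpha, which all fractions share. It is 1 line, and nothing in the labels says that the 3 samples of a fraction came from separate cultures. P-values measure the spread left between these samples once slide is fitted, which may be technical. Spread shared by the arrays of a slide does not enter them, save in the fit without slide.

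Haematopoietic progenitors that carry Sca1 and CD34 sit early in the hierarchy, and both are lost as cells enter the erythroid lineage. The receptor Kit binds SCF and stays on erythroid progenitors and mast cells. GATA1 and KLF1 are the transcription factors that switch on globin, heme and red cell membrane genes, while GATA2 with MITF is needed for mast cells and basophils. Interferon-stimulated genes such as Rsad2 form an antiviral programme driven by factors such as IRF9 and STAT2, and are known to be active at rest in primitive blood cells.

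Signals were background-subtracted by the scanner software, and a level here is the log2 processed signal minus the log2 75th percentile of its array, so that 0 is as bright as that percentile. Levels of different genes come from different probes and are not compared. A difference is EryCP minus Sca1hi on the log2 scale, with the standard error (SE) of a limma fit that holds slide as a block (n = 3 arrays a group). Calls were made where limma's p-value, adjusted by Benjamini and Hochberg over all genes tested, was under 0.05, and every adjusted p below is of that kind. The 75th percentile signal was 649 to 1034 over the 9 arrays of the 3 slides, 80.2% to 93.8% of probes were well above background, with slide 2 highest, and 0 spots were saturated. In bulk RNA, fewer cells of a type and less RNA per cell cannot be told apart.

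Of 26465 genes tested, 5508 were called, 20.8%: 2728 (10.3%) were higher in EryCP and 2780 (10.5%) lower. At least 2-fold differences were seen for 535 of the higher and 580 of the lower genes, and at least 8-fold differences for 62 and 49. The differences had the same sign on all 3 slides for 2717 of the higher and 2773 of the lower genes. The calls rest on these same within-slide differences, so the shared sign is not separate support for them. Many of the calls were of small size, with a median called difference of 0.57 among the higher and -0.55 among the lower genes. Without slide in the fit, 1691 genes (6.39%) were called, 820 higher and 871 lower, and of the at least 2-fold differences 467 higher and 533 lower genes were called. The median difference of all genes was -0.04. Counts of called members in the lists below are to be read beside the shares of all genes, 10.3% higher and 10.5% lower.

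**Figure D1:**
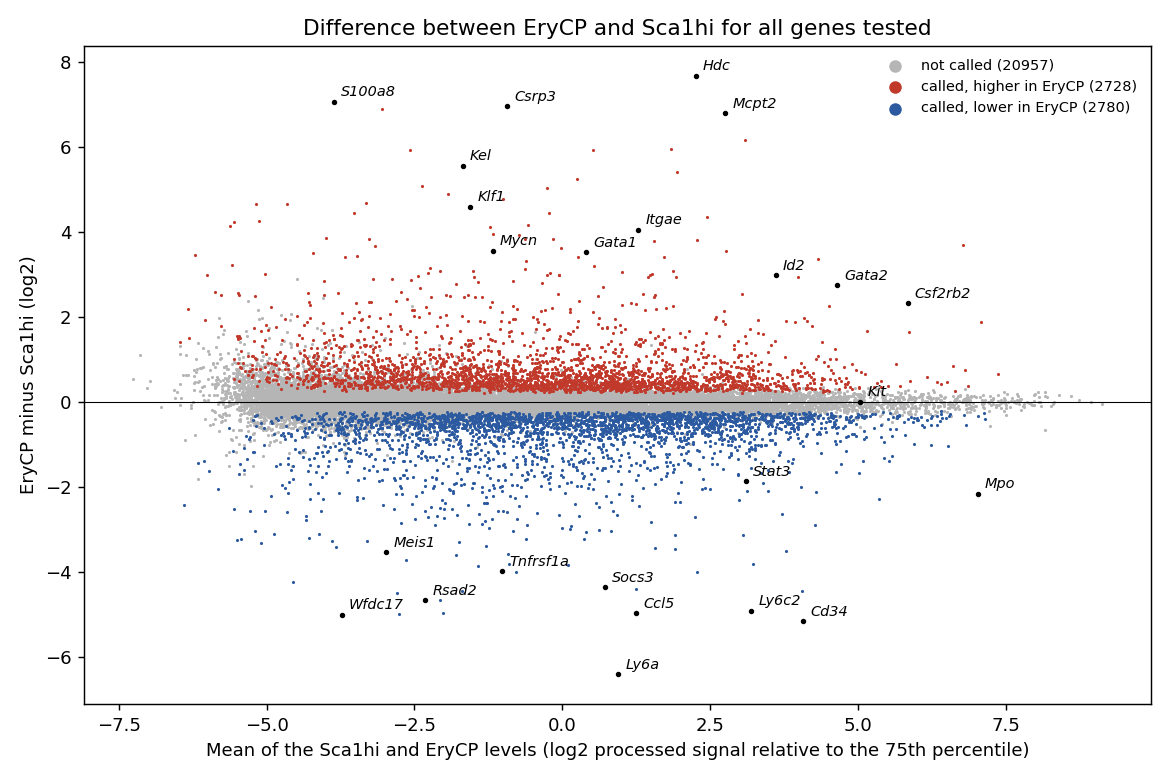
Difference between EryCP and Sca1hi (log2, y axis) against the mean of both levels (log2 processed signal relative to the 75th percentile of the array, x axis), 1 point a gene or unnamed probe. Red points are the 2728 genes called higher in EryCP, blue points the 2780 called lower and grey points those not called. Labelled genes are shown in black, with Hdc at 7.67 and Ly6a at -6.40.

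The genes of the sorting markers differed in the way their labels state for Sca1 and CD34. The level of Ly6a, which encodes Sca1, was 4.17, 4.10 and 4.18 in Sca1hi and -2.21, -2.11 and -2.43 in EryCP on slides 1, 2 and 3. This was an 84.6-fold lower signal in EryCP (difference -6.40 ± 0.09, adjusted p = 2.36e-06), with CR Sca1lo close to EryCP at a mean of -1.41. Cd34 stood at 6.83, 6.46 and 6.65 in Sca1hi and at 2.07, 1.15 and 1.28 in EryCP, 35.5-fold lower (difference -5.15 ± 0.15, adjusted p = 1.22e-05). Unlike Ly6a, Cd34 was near the Sca1hi level in CR Sca1lo, with a mean of 6.22. The groups did not overlap for either gene. Kit, the SCF receptor, was at 5.16, 4.76 and 5.20 in Sca1hi and 5.34, 4.84 and 4.97 in EryCP. These values overlapped, and the difference of 0.01 ± 0.12 was not called (adjusted p = 0.97). Its sign turned under several alternatives, among them the spike-in scaling.

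**Figure D2:**
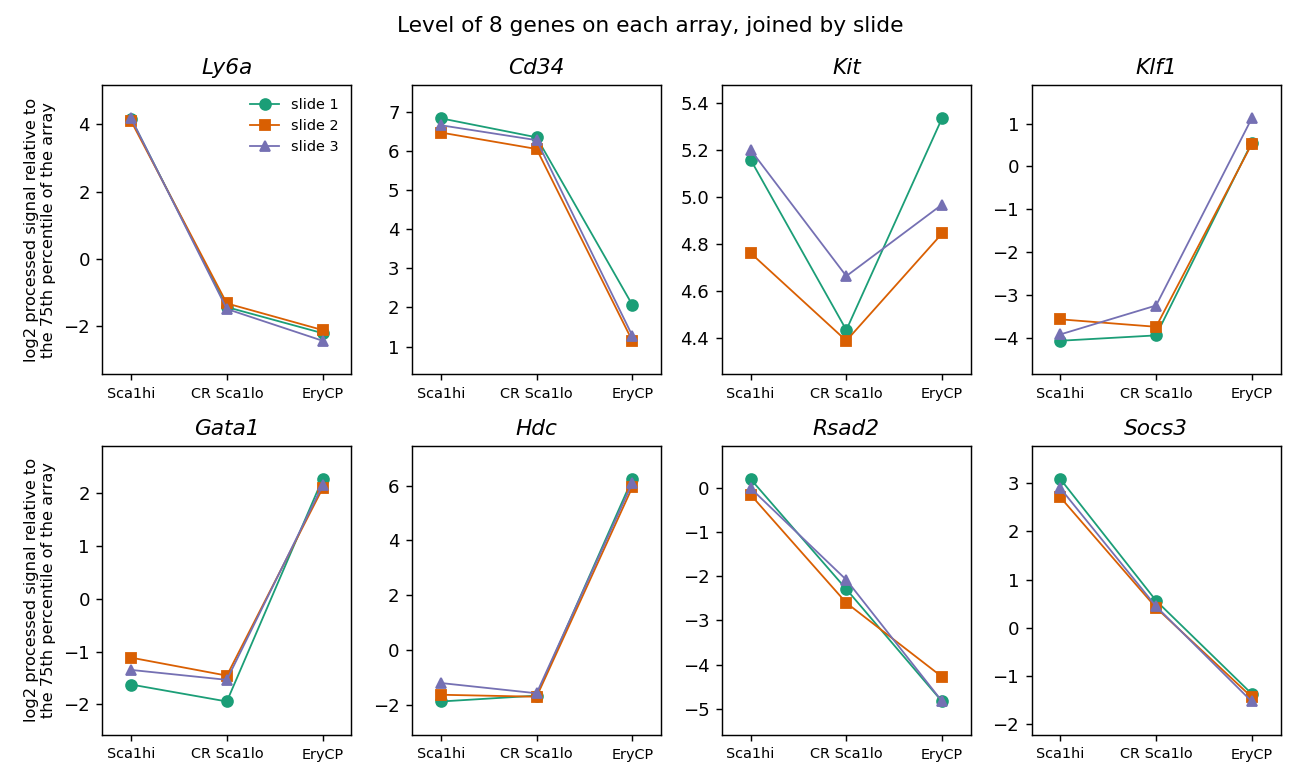
Levels (log2 processed signal relative to the 75th percentile of the array, y axis) of 8 genes in the 3 fractions (x axis), 1 point an array, joined by slide (slide 1 circles, slide 2 squares, slide 3 triangles). The y axes differ between panels. Ly6a drops between Sca1hi and CR Sca1lo, whereas Cd34, Klf1, Gata1 and Hdc part EryCP from both other fractions.

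The Ly6 family holds small surface proteins encoded beside Ly6a or related to it in sequence. Of 9 measured, Ly6a included, 4 fell and 1 rose, where 10.5% of all genes fell and 10.3% rose. The list median was -0.29, and the fit without slide called 3 lower and 0 higher. Ly6c2 was 29.9-fold lower (from 5.65 to 0.75 in the group means, adjusted p = 4e-06), and its mean in CR Sca1lo was 1.46. Ly6i fell 2.77-fold (adjusted p = 0.000907). Probes of such closely related genes may share signal.

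Erythroid regulators rose as a small subset of the factors listed. Of 15 erythroid transcription factors measured, 5 rose (Klf1, Gata1, Gfi1b, Sox6 and Nfe2) and Lyl1 fell, against a list median of 0.13. Of all genes 10.3% rose and 10.5% fell. The Klf1 level was -4.07, -3.57 and -3.92 in Sca1hi and 0.56, 0.52 and 1.12 in EryCP on slides 1 to 3, which is 24.1-fold higher (difference 4.59 ± 0.18, adjusted p = 2.83e-05). Gata1 went from -1.62, -1.12 and -1.35 to 2.26, 2.09 and 2.14, 11.5-fold higher (difference 3.53 ± 0.14, adjusted p = 3.01e-05). For both genes the groups lay apart, and CR Sca1lo stood with Sca1hi, at means of -3.64 for Klf1 and -1.64 for Gata1. Gfi1b, a repressor needed for erythroid and megakaryocyte maturation, was already well expressed in Sca1hi at 2.36 and rose 3.78-fold (adjusted p = 4.22e-05). Tal1, a partner of GATA1 that is shared by stem cells and erythroid cells, was not called, with a difference of 0.08 ± 0.08 (adjusted p = 0.543). The fall of Lyl1, a Tal1 relative, was 1.65-fold and was not called without slide (adjusted p = 0.116). Sox6, a repressor of embryonic globin, was 3.06-fold higher (adjusted p = 0.0141). Of its 4 probes 2 were called higher, with differences over all 4 from -0.13 to 2.47. The call of Sox6 was lost when the Sca1hi array of slide 3 or the EryCP array of slide 3 or slide 1 was left out (adjusted p = 0.0608, 0.0625 and 0.0714). It was also lost when slide 1 or slide 3 was left out.

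Red cell structural genes split into those that rose strongly and those that were not called. Of 19 globin and red cell membrane genes measured, 10 rose, each at least 2-fold, and 0 fell, also at an unadjusted p under 0.05, with a list median of 1.45. Kel, the Kell blood group protein, rose 47.1-fold from -4.76, -3.81 and -4.82 to 0.98, 0.94 and 1.36 (adjusted p = 8.29e-05). The early embryonic beta-type globin Hbb-bh1 rose 27.2-fold from -3.47, -3.22 and -3.49 to 1.28, 1.21 and 1.63 (adjusted p = 1.47e-05). Neither Kel nor Hbb-bh1 overlapped between the groups. The adult alpha globin Hba-a1, whose probe may not tell it from its near-identical copy, rose 4.77-fold (adjusted p = 4.82e-05). Slc4a1, the anion exchanger band 3 of mature red cells, had a difference of -0.29 ± 0.15 and was not called (adjusted p = 0.251).

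Heme synthesis and iron genes also rose in the main, with 12 of 22 higher, 4 lower and a median of 0.38, while the fit without slide called 7 higher and 2 lower. Alas2, the erythroid enzyme of the first step of heme synthesis, was at -4.14, -3.56 and -4.06 in Sca1hi and -1.28, -1.08 and -0.52 in EryCP (difference 2.96 ± 0.23, adjusted p = 0.000341). Alad, the enzyme of the next step, rose 2.88-fold (adjusted p = 3.51e-05). The transferrin receptor gene Tfr2 rose 4.57-fold (adjusted p = 7.12e-05) and had its top mean in CR Sca1lo, 1.15 against 0.33 in EryCP. Slc40a1, the iron exporter ferroportin, went the other way, from 0.20, 0.39 and 0.39 to -2.20, -1.71 and -1.87 (4.77-fold lower, adjusted p = 3e-05). Ftl1, a ferritin chain that stores iron, fell 2.00-fold (adjusted p = 0.000443). Both were as low or lower in CR Sca1lo, at means of -2.30 for Slc40a1 and 5.29 for Ftl1.

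Erythroid promoters are shown for Alas2 and Kel, which rose and hold a GATA core close to the gene start. The sequences run from 250 bases before to 50 bases after the RefSeq start in the assembly GRCm38.p6, 5′ to 3′ on the strand of the gene, at chrX:150547167-150547466, plus strand, and chr6:41704276-41704575, minus strand. Capitals mark AGATAA or its reverse complement, which begins 86 bases before the start in Alas2 and 56 bases before it in Kel.
Alas2: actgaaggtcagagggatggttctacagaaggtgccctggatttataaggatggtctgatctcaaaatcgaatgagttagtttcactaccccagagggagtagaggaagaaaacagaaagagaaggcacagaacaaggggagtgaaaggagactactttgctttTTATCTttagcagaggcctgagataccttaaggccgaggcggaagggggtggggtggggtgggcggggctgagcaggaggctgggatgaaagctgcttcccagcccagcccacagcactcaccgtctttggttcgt
Kel: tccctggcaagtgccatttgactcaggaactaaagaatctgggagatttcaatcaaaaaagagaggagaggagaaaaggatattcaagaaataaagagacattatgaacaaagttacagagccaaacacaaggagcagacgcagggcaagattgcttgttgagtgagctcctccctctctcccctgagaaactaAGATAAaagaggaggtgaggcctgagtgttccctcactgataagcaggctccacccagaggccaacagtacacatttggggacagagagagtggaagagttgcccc
Over the 27 called higher genes of the erythroid lists, 20 matched a promoter, and 4 of these (20%) held AGATAA on either strand. Of all 27025 genes with a promoter, 12.7% did, a gene counting where any of its windows held the motif. The CACCC box CCACCC, to which KLF1 can bind, was held by 11 of the 20 (55%) against 34% of all. Neither motif was particular to the erythroid genes. In 17 promoters of interferon-stimulated genes that fell, 5 (29.4%) held AGATAA and 7 (41.2%) held CCACCC. Erythroid members that were not called higher were not counted, so these shares are not tied to the rise. A match describes the letters in this window only.

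Mast cell and basophil genes made up 5 of the 10 highest rises. Of 21 measured, 18 rose, 15 of them at least 2-fold, and 0 fell (1 was lower at an unadjusted p under 0.05), with the highest median of the 35 lists, 2.57. Hdc, which makes histamine, was at -1.88, -1.64 and -1.21 in Sca1hi and 6.24, 5.94 and 6.10 in EryCP, 204-fold higher (difference 7.67 ± 0.15, adjusted p = 3.88e-06). The mast cell protease gene Mcpt2 stood at -1.10, -0.65 and -0.18 against 6.29, 5.92 and 6.22, 110-fold higher (adjusted p = 1.27e-05). Mcpt8, a protease typical of basophils, rose 42.8-fold (difference 5.42 ± 0.07, adjusted p = 2.36e-06) from -0.52, -1.04 and -0.75 to 4.78, 4.46 and 4.70. For all of these, the arrays of EryCP lay far above those of Sca1hi. Mcpt4 and Cma2, further chymase-type proteases, rose 71.2-fold and 61.5-fold (adjusted p = 9.51e-05 and 3.96e-05). Protease genes of this cluster are similar in sequence, and their probes may share signal.

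Il1rl1, the receptor for interleukin 33, was 10.3-fold higher (from a mean of 2.64 to 6.01, adjusted p = 3.42e-06). All 3 of its probes were called higher, with differences from 1.60 to 3.37. Ms4a2, the beta chain of the IgE receptor, was 14.3-fold higher (adjusted p = 0.000321). Cpa3, a mast cell carboxypeptidase, stood at means of 7.86 in Sca1hi and 7.68 in EryCP and was not called (difference -0.18 ± 0.07, adjusted p = 0.141). In CR Sca1lo the proteases were below both other fractions, with means of -3.23 for Mcpt2, -1.81 for Mcpt4 and -2.61 for Cma2, whereas Mcpt8 was at 0.45, above Sca1hi.

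Outside the lists, Csrp3, a LIM domain protein known from striated muscle, was at -5.13, -3.50 and -4.61 in Sca1hi and 2.52, 2.22 and 2.88 in EryCP (124-fold higher, adjusted p = 7.64e-05). Itgae, the integrin chain CD103 and a member of the adhesion list, rose 16.5-fold from a mean of -0.74 to 3.30 (adjusted p = 1.24e-05). Its mean in CR Sca1lo was -0.36.

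The lists of other cell types were mixed. Of 17 neutrophil and monocyte granule genes, 4 rose and 3 fell (2 and 3 without slide), where 10.3% of all genes rose and 10.5% fell. S100a8 and S100a9, the chains of calprotectin, were among the 10 highest rises. S100a8 was not well above background on any Sca1hi array, at -6.81, -7.92 and -7.44, and reached -0.45, -0.31 and -0.22 in EryCP, at least 48.1-fold higher (adjusted p = 0.000168). Such a bound sets the EryCP mean against the lowest signal well above background on each Sca1hi array. The bound holds for the processed signal only. S100a8 differed by 7.06 as measured, but by 3.84 in the deposited series table, which is less than the bound. S100a9 rose 61-fold from a mean of -2.45 to 3.48 (adjusted p = 0.00015). Mpo, the myeloperoxidase of neutrophil granules, and the lysozyme gene Lyz2 went down, Mpo from 8.20, 7.82 and 8.28 to 6.17, 5.45 and 6.24 (4.45-fold, adjusted p = 4.02e-05) and Lyz2 3.69-fold (adjusted p = 0.000144). Of 15 megakaryocyte and platelet genes 5 rose, among them the platelet chemokine Pf4 (3.84-fold, adjusted p = 0.000109). The 1 that fell, where 10.5% of all genes did, was the integrin Itgb3 (4.07-fold lower, adjusted p = 5.35e-05). Itgb3 was -1.12 when all its kept probes were averaged. Of 19 lymphoid genes 2 rose (1 without slide), where 10.3% of all genes did, and 1 fell, where 10.5% did. The gene that fell was Il7r (5.29-fold lower, adjusted p = 0.00124), for which both probes averaged to -1.46. All 3 called of 8 eosinophil genes were lower, led by Il5ra (6.74-fold, adjusted p = 0.000169), and 0 were higher, also at an unadjusted p under 0.05. Without slide 1 eosinophil gene was called lower.

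The signal of each of these lists was also summed, in multiples of the 75th percentile signal. Bright probes weigh most in such a sum, so it does not give the size of a cell type. Mpo, at means of 8.10 in Sca1hi and 5.95 in EryCP, and Cpa3, at 7.86 and 7.68, are examples. The sum was 434 to 623 in Sca1hi and 1243 to 1660 in EryCP for mast cell and basophil genes. For neutrophil and monocyte genes it was 341 to 465 against 145 to 223. The sums were 33.9 to 35.7 against 35.1 to 39.4 for macrophages and dendritic cells, 2.65 to 3.06 against 1.41 to 1.86 for eosinophils, 41.5 to 58.7 against 52.3 to 64.9 for megakaryocytes and 4.89 to 7.95 against 4.46 to 7.60 for lymphoid genes. Of the members, S100a8 and Mcpt9 were not above background on any Sca1hi array and Wfdc17 on no EryCP array. The part of such cells in the differences was not tested.

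**Figure D3:**
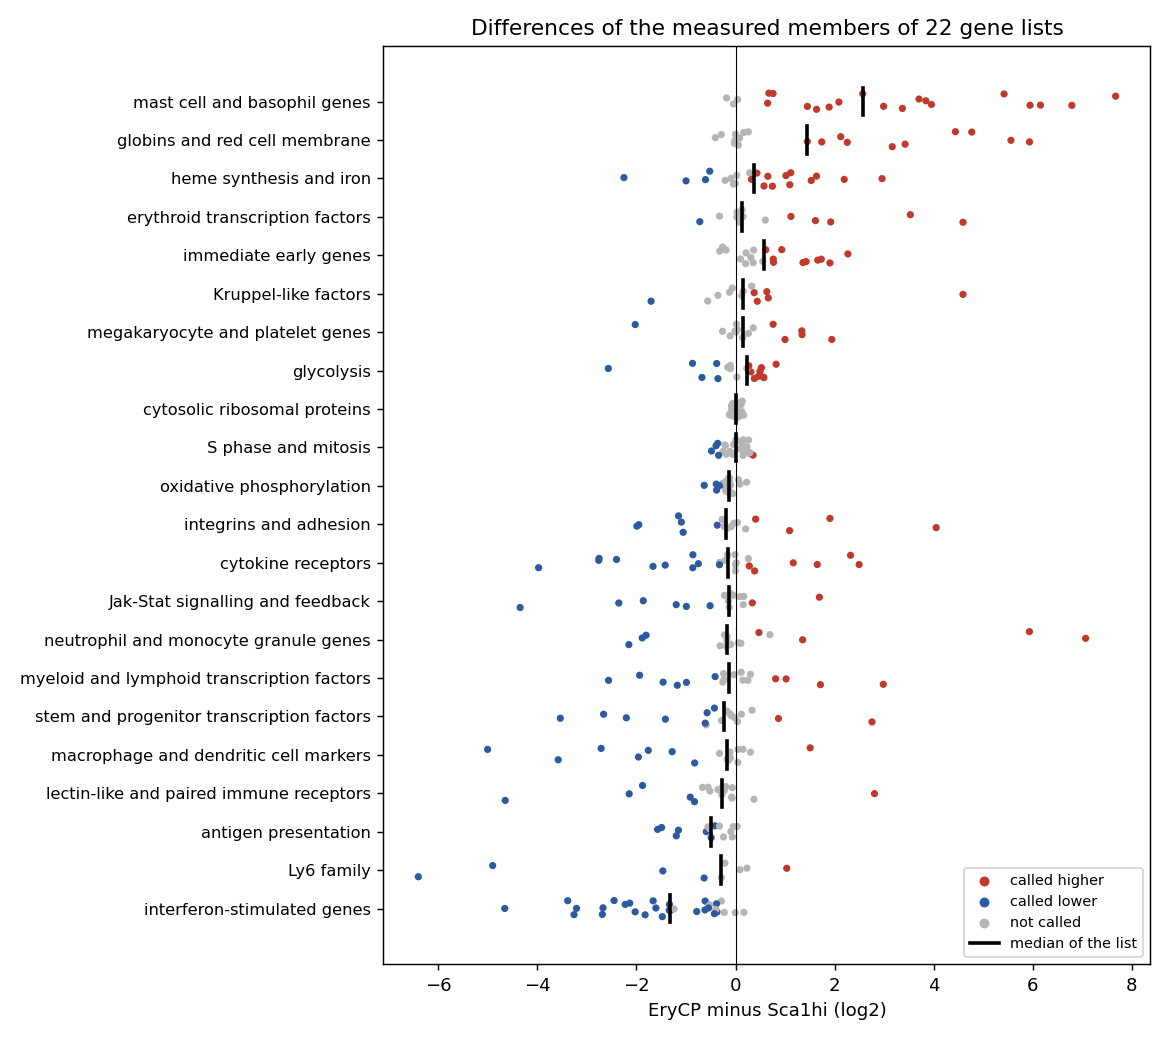
Difference between EryCP and Sca1hi (log2, x axis) for the measured members of 22 gene lists (y axis), 1 point a gene, red where called higher, blue where called lower and grey where not called; vertical placement within a row carries no meaning. Black bars are list medians, from 2.57 for mast cell and basophil genes to -1.33 for interferon-stimulated genes.

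Interferon-stimulated genes were lower in EryCP as a group. Of 31 measured, 24 fell, 17 of them at least 2-fold, and 0 rose, also at an unadjusted p under 0.05, and the list median was -1.33. Without slide 17 members were called lower. The Rsad2 level, of the antiviral enzyme viperin, was 0.20, -0.16 and -0.01 in Sca1hi and -4.84, -4.28 and -4.83 in EryCP on slides 1, 2 and 3 (25.2-fold lower, difference -4.66 ± 0.21, adjusted p = 4.48e-05). All 3 of its probes were called lower, and their mean gave -2.58. Parp14, an ADP-ribosyltransferase, was at 0.51, 0.33 and 0.37 against -2.83, -3.16 and -2.96 (10.5-fold lower, adjusted p = 4e-06), and its other probe was called lower at -1.36. Neither gene overlapped between the groups. Oasl2, of the family of oligoadenylate synthetase-like proteins, fell 9.58-fold (adjusted p = 0.00018) to a level above background on 1 of 3 EryCP arrays, and its difference of -3.26 was -1.95 in the deposited table. Ifit1 and Ifit3, antiviral proteins of the IFIT family, fell 4.40-fold and 6.39-fold (adjusted p = 0.00677 and 0.00148), with differences of -1.24 and -1.35 in the deposited table. Ifit3 was above background on 1 of 3 EryCP arrays. The call of Ifit1 was lost without slide 2 (adjusted p = 0.0663).

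Irf7, a transcription factor of the interferon response, was at -1.36, -1.45 and -1.15 in Sca1hi and -3.19, -2.63 and -2.96 in EryCP (3.05-fold lower, adjusted p = 0.000681). Irf9 fell 1.72-fold (adjusted p = 0.00149). Stat2 fell 1.30-fold (adjusted p = 0.00981), but was not called without slide (adjusted p = 0.368), nor without the Sca1hi array of slide 3 or the EryCP array of slide 2 (adjusted p = 0.0506 and 0.0511), nor without any 1 of the slides. Its lowest mean was in CR Sca1lo, 0.97 against 1.13 in EryCP. The interferon receptor chain Ifnar2 was at 2.67, 2.45 and 2.67 in Sca1hi and 1.06, 0.65 and 1.09 in EryCP (3.17-fold lower, adjusted p = 5.5e-05), and Ifnar1 fell 1.82-fold (adjusted p = 0.00216). In CR Sca1lo the list lay between the other fractions, with a median of -0.86 relative to Sca1hi and a median difference of -0.36 from CR Sca1lo to EryCP.

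Promoters of 3 interferon-stimulated genes are shown since the response element of this programme lies close to the start in each. They are RefSeq windows as above, at chr12:26456403-26456702, minus strand, chr19:34640639-34640938, plus strand, and chr19:34583279-34583578, plus strand. Capitals mark GAAANNGAAA or, as here in each case, its reverse complement, beginning 120 bases before the start in Rsad2, 104 and 85 before it in Ifit1, and 156 and 122 before it in Ifit3.
Rsad2: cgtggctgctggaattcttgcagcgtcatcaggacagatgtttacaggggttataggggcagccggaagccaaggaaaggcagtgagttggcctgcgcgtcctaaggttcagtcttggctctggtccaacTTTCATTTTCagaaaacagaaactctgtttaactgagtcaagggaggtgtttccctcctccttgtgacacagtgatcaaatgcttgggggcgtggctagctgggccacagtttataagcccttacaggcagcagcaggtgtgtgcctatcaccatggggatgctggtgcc
Ifit1: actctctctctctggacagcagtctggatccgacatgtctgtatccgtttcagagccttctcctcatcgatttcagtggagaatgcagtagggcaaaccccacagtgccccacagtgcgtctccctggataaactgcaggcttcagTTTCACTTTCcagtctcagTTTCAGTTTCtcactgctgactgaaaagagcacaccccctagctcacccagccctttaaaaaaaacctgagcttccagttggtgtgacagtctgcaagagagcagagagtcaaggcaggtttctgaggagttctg
Ifit3: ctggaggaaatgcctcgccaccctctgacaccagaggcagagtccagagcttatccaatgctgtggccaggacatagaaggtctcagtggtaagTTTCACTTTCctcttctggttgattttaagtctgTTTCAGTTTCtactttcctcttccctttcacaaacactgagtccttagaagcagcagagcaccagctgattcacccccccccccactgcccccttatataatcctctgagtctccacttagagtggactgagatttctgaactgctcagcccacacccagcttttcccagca
Of the 24 members that fell, 17 matched a promoter and 10 of them (58.8%) held GAAANNGAAA on either strand, against 3.99% of all 27025 genes. In the 20 erythroid promoters it was found in 2 (10%). The listed genes were chosen as interferon-stimulated, and members that did not fall were not counted, so these shares are not tied to the fall.

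Antigen presentation genes, many of which respond to interferons, shared the direction: 7 of 15 fell, 0 rose, also at an unadjusted p under 0.05, and the median was -0.49, with 4 called lower without slide. H2-K1, a class I heavy chain, went from 2.88, 2.45 and 2.69 to 1.25, 0.86 and 1.19 (2.98-fold lower, adjusted p = 3e-05), and B2m, the light chain of class I, fell 2.22-fold (adjusted p = 0.000149). Sequence-related class I genes may share the signal of H2-K1, and its 3 probes averaged to -0.96. Psmb9, of the immunoproteasome, fell 2.81-fold (adjusted p = 3.79e-05).

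Macrophage and dendritic cell markers fell in 7 of 17 cases and rose in 1, with a median of -0.17, where 10.5% of all genes fell and 10.3% rose. Wfdc17, a secreted protein of activated macrophages, was at -1.46, -1.05 and -1.18 in Sca1hi and not well above background on any EryCP array. In the processed signal it was at least 29.3-fold lower (adjusted p = 0.000193). Its measured difference of -5.00 was -2.96 in the deposited table, a smaller fall than that bound. The protease Ctss went from 0.87, 0.98 and 0.78 to -3.28, -1.95 and -2.89 (12-fold lower, adjusted p = 0.000109) and was as low in CR Sca1lo, at a mean of -2.52. Ccl5, a chemokine of T cells and inflammation, fell 31.1-fold (from a mean of 3.72 to -1.24, adjusted p = 2.25e-05). Over the chemokine list, 5 fell and 4 rose (4 and 2 without slide), the latter led by the receptor Ccr7 (5.51-fold higher, adjusted p = 3.51e-05). Among lectin-like and paired receptors, 5 of 19 fell and 1 rose, beside the same shares of all genes. Klra7, an NK cell lectin-like receptor with close relatives in its cluster, fell 25.1-fold (adjusted p = 3.42e-06), and Cd200r3, an activating receptor known from mast cells and basophils, rose 6.98-fold (adjusted p = 0.000527).

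Cytokine receptors fell more often than they rose, 10 against 6 of 25 measured, with a median of -0.16. Epor, the erythropoietin receptor, was at -0.84, -0.47 and -0.60 in Sca1hi and 1.70, 1.78 and 2.09 in EryCP (5.63-fold higher, adjusted p = 2.48e-05). Csf2rb2, a beta chain for interleukin 3, was at 4.82, 4.53 and 4.70 against 6.96, 6.91 and 7.14 (4.99-fold higher, adjusted p = 2.75e-05). Its close copy Csf2rb, whose probe may share signal, rose 3.13-fold. Of the 3 Csf2rb probes 2 were called higher, with differences over all 3 from 0.25 to 1.72. Both beta chains had their lowest means in CR Sca1lo, 3.05 and 3.54. Tnfrsf1a, the main receptor of tumour necrosis factor, fell from 1.23, 0.81 and 0.87 to -2.82, -3.30 and -2.89 (15.7-fold, adjusted p = 9.01e-06). Il6st, the gp130 chain shared by the interleukin 6 family, fell 6.78-fold (adjusted p = 7.26e-05).

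Downstream of such receptors, 6 of 16 Jak-Stat genes fell and 2 rose, with a median of -0.14, where 10.5% of all genes fell and 10.3% rose. Socs3, a feedback inhibitor of gp130 signalling, was at 3.09, 2.71 and 2.90 in Sca1hi, 0.56, 0.41 and 0.44 in CR Sca1lo and -1.37, -1.44 and -1.53 in EryCP (20.4-fold lower than in Sca1hi, adjusted p = 3.42e-06). Stat3, the factor of that pathway, was at 4.20, 3.80 and 4.13 against 2.24, 1.95 and 2.35 (3.64-fold lower, adjusted p = 2.1e-05). The 3 fractions did not overlap for Socs3, while Stat3 in CR Sca1lo, a mean of 3.95, overlapped with Sca1hi. Cish, a feedback target of the erythropoietin receptor and STAT5, rose 3.23-fold from -0.98, -1.23 and -1.12 to 0.56, 0.42 and 0.76 (adjusted p = 8.29e-05).

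Stem and progenitor transcription factors fell in 7 of 18 cases and rose in 2, where 10.3% of all genes rose, with a median of -0.23. Meis1, a homeobox factor of stem cells and leukaemia, was at -1.09, -1.21 and -1.34 in Sca1hi and -4.63, -4.70 and -4.91 in EryCP (11.6-fold lower, adjusted p = 6.25e-06), without overlap. The Meis1 difference of -3.54 was -2.17 with outlying local backgrounds replaced, an alternative chosen after seeing the data. Gfi1, a repressor in stem cells and granulocytes, fell 6.33-fold (adjusted p = 0.000147), and 1 CR Sca1lo array had no value for it in the fit. Hlf fell 4.61-fold (adjusted p = 0.000153) and Myct1 2.67-fold (adjusted p = 8.43e-05). Gata2, which serves stem cells as well as mast cells, rose from 3.42, 3.10 and 3.31 to 6.23, 5.80 and 6.06 (6.74-fold, adjusted p = 8.44e-06). Of 12 Hox genes measured, 1 was called lower, where 10.5% of all genes were, and 0 higher, also at an unadjusted p under 0.05, with a median of -0.07. Without slide 0 Hox genes were called.

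Among 18 myeloid and lymphoid transcription factors 6 fell and 4 rose. Runx2, known from bone and from progenitors, fell 5.91-fold (adjusted p = 1.22e-05), and its 4 probes averaged to -1.57. Tcf7 fell 3.83-fold (adjusted p = 0.00024), with its other probe called lower at -0.91, and Cebpd fell 2.76-fold (adjusted p = 0.000484). Spi1, the myeloid factor PU.1 that opposes GATA1, was at -1.74, -1.78 and -1.71 against -2.83, -2.71 and -2.66 (1.99-fold lower, adjusted p = 0.000192). Id2, an inhibitor of E proteins, rose from 2.32, 1.90 and 2.14 to 5.25, 4.87 and 5.18 (7.89-fold, adjusted p = 4.19e-06), while its relative Id1 fell 4.84-fold (adjusted p = 0.0002) to a level above background on 2 of 3 EryCP arrays, with a difference of -1.24 in the deposited table. Mitf, a mast cell factor, rose 3.28-fold (adjusted p = 6.33e-05). In the list of 16 TGF-beta and BMP genes, 5 fell and 2 rose (3 and 1 without slide), where 10.5% of all genes fell and 10.3% rose. Smad3 was 4.26-fold lower (adjusted p = 8.75e-05).

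Immediate early genes, which growth factor signals switch on within minutes, rose in 10 of 20 cases and fell in 0 (1 was lower at an unadjusted p under 0.05), with a median of 0.58. Egr1 was at 3.44, 2.88 and 3.23 in Sca1hi and 5.11, 4.81 and 5.35 in EryCP (3.74-fold higher, adjusted p = 6.15e-05). Ier3 rose 4.81-fold (adjusted p = 6.23e-05), Nr4a2 3.31-fold (adjusted p = 0.000254) and Fos 3.16-fold (adjusted p = 0.00314), the last not called without slide 2 (adjusted p = 0.0527). The CR Sca1lo means of Egr1 and Fos, 3.01 and -0.73, were below those of Sca1hi, 3.19 and 0.17.

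Adhesion genes moved both ways, 6 of 18 lower and 4 higher, the latter led by Itgae as given above, with a median of -0.20. Cd44, the hyaluronan receptor, fell 3.98-fold (adjusted p = 6.86e-05), with -1.25 as the mean of its 3 probes, and Icam1 fell 3.87-fold (adjusted p = 2.17e-05). Itga4, a chain of the VLA-4 integrin that erythroid progenitors use to bind macrophages, rose 3.74-fold, with all 3 of its probes called higher (adjusted p = 0.00016).

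Of 20 cytosolic ribosomal proteins 0 were called by limma and 0 had an unadjusted p under 0.05, with a median of 0.01, where 20.8% of all genes were called. Of 27 genes of S phase and mitosis, 4 fell and 1 rose, where 10.5% of all genes fell and 10.3% rose. Of these calls 0 reached 2-fold, and the fit without slide called 0. Of 23 genes of oxidative phosphorylation, 5 fell (0 without slide) and 0 rose (1 was higher at an unadjusted p under 0.05). Among 19 glycolysis genes, 9 rose and 5 fell, and 1 and 2 without slide. Hk3, a hexokinase of myeloid cells, fell 5.93-fold (adjusted p = 0.000113) and Slc2a1, the glucose transporter GLUT1, rose 1.76-fold (adjusted p = 0.000474). Of the D cyclins, Ccnd2 rose from 1.79, 1.40 and 1.63 to 3.86, 3.49 and 3.47 (4-fold, adjusted p = 4.51e-05), with all 3 probes higher, and was as high in CR Sca1lo at a mean of 3.61. Ccnd3 fell 1.53-fold (adjusted p = 0.00203) and Ccnd1 rose 1.22-fold (adjusted p = 0.0457). Neither Ccnd3 nor Ccnd1 was called without slide (adjusted p = 0.0754 and 0.496). Mycn, a relative of Myc, rose 11.8-fold (from a mean of -2.96 to 0.60, adjusted p = 1.09e-05) and stood at 0.71 in CR Sca1lo, with 2.23 as the difference over the mean of both probes. In the list of 14 retinoid genes, 2 fell, where 10.5% of all genes did, and 0 rose (2 were higher at an unadjusted p under 0.05). Without slide 1 was called lower. The larger fall was that of Dhrs3, a retinaldehyde reductase and target of retinoic acid, from a mean of 3.52 to 1.48 (4.1-fold, adjusted p = 6.87e-05), with 1.15 in CR Sca1lo.

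CR Sca1lo, low for Ly6a but high for Cd34, was placed between the fractions gene by gene, as a description without a test. Of the 535 genes at least 2-fold higher in EryCP, 393 (73.5%) had a CR Sca1lo level nearer to Sca1hi, and the median place was 0.26 of the way from Sca1hi to EryCP. Of the 580 genes at least 2-fold lower, 288 were nearer to Sca1hi and 292 nearer to EryCP, with a median place of 0.51. Outside the range of both fractions were 169 of the higher and 153 of the lower genes. Clec10a, a lectin of macrophages and dendritic cells, was such a case: 0.44, 0.93 and 1.06 in Sca1hi, -3.67, -3.49 and -3.53 in CR Sca1lo, and 2.78, 2.42 and 1.74 in EryCP. Its 2.84-fold rise from Sca1hi to EryCP (adjusted p = 0.0125) was not called without the Sca1hi array or the EryCP array of slide 2 (adjusted p = 0.0511 and 0.0557), nor without slide 1 or slide 2.

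**Figure D4:**
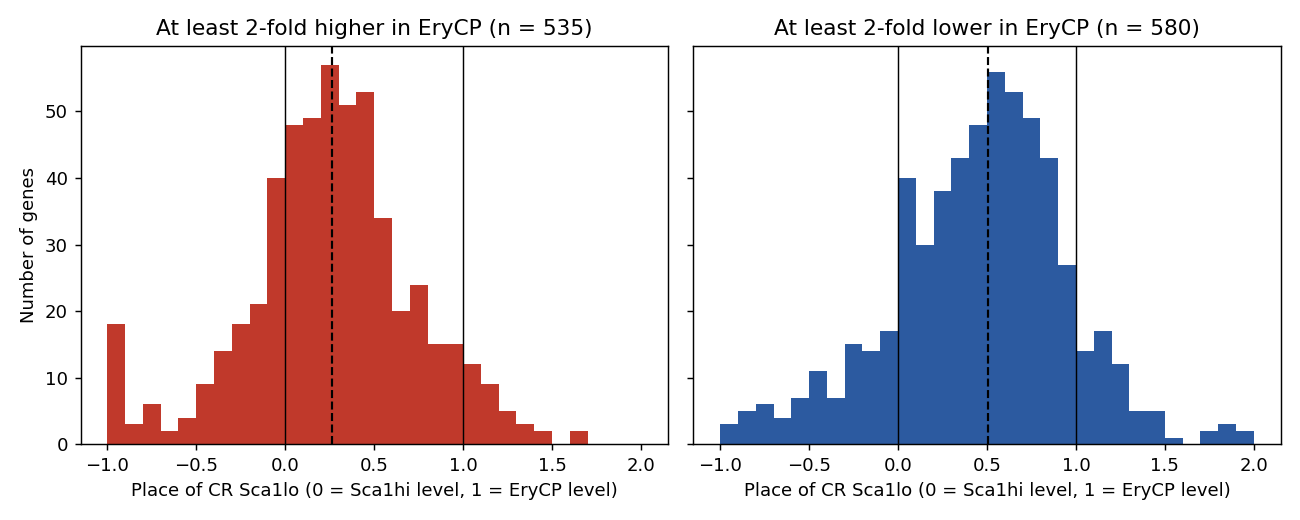
Place of the CR Sca1lo mean level between Sca1hi (0) and EryCP (1) on the log2 scale (x axis) and number of genes (y axis) for the 535 genes at least 2-fold higher (left) and the 580 at least 2-fold lower (right) in EryCP. Dashed lines are the medians, 0.26 and 0.51; 21 genes beyond the axis are drawn at its ends.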

How the data were processed

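Total RNA of sorted EML fractions was amplified with spike-in RNA, labelled with Cy3 and hybridised to 1-colour Agilent arrays, per the labels' protocols. Arrays were read with Agilent Feature Extraction (named in the submitters' processing notes), in version 10.1.1.1 per the file headers. The deposited scanner files hold intensity values on a linear scale, of which the processed signal is background-subtracted. The log2 values of the deposited series table have no stated centring. For these arrays they correlated with the log2 of the median signal (r of 0.995 to 1.00), and column medians were 7.18 to 7.21.

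Of 41174 probes, 27071 took a symbol by accession from a RefSeq table (GRCm38.p6), and 14103 were unnamed here and counted 1 by 1. Control, uneven and outlying spots were left out (59 to 166 a sample for the last 2 kinds), spots of 1 probe averaged, and probes kept where a share of at least 0.5 of the spots were well above background on every array of at least 1 of 3 groups, which left 33792 probes and 26465 genes, each by its brightest probe. Of 1630 called genes with several probes, 825 had all probes called the same way and 10 had probes called in both directions. limma (3.58.1, R 4.3.3) fitted log2 processed signal minus the 75th percentile on 9 arrays, CR Sca1lo included, with slide (from the barcodes in the file headers) as a block; 128 genes lacked a value on an array. Arrays of 1 slide deviated together from their group means (r of 0.195 to 0.865 for every pair), whereas the replicate numbers were given in accession order and do not pair arrays. The code was tested on simulated data.

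Named were Ly6a, Cd34, Kit, Klf1 and Rsad2, the 10 highest and 10 lowest called genes with 1 sign on every slide and above background in their higher group, and per list up to 4 called members in the commoner direction and 2 in the other. That gave 155 genes, of which those the text needs are printed and some are not reported here; 15 more were named for their role after their values were seen. The comparison, the 35 lists (589 of 644 genes measured) and their genes were chosen with earlier results of these data known. Alternatives were no slide term, slide as a random block, 6 arrays, eBayes with trend, normexp (offset 50, on the median signal, since no mean signal was used here), quantile and spike-in scaling, the deposited table, other filters, the mean of probes, and leaving out arrays or slides. Probe names can be old, and genes with near-identical copies are uncertain. Motifs were counted with Python 3.11.15, and figures drawn with matplotlib 3.10.9.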

Additional observations from a re-analysis of the deposited data

How the results depend on the processing

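Counts of calls depended on the fit. The named genes were chosen mostly for large called differences, so how many kept their call does not stand for all genes. With no replicate block, so that arrays were not paired by slide, 1691 genes were called (820 higher, 871 lower) in place of 5508 (2728 and 2780). In that fit 49 of 170 named genes lost the call. Their differences could not change there, since each slide held 1 array of each group, and only the standard errors did. Spike-in scaling called 2422 (1264 and 1158), with 39 named calls lost. Normexp background correction called 13 (8 and 5), with 148 named calls lost and a median of all genes of -0.50; with outlying local backgrounds replaced, an alternative chosen after seeing the data, 5822 were called. In plain normexp, the differences of Ly6d (-0.16), Cxcl2 (-1.02), Sox6 (-0.16), Mmp8 (-0.87), Vpreb1 (-0.15), Cd3g (-0.49), Cdc20 (0.0446), Rbl2 (-0.14), Atp5a1 (0.15), Mvd (0.0560) and Cpa3 (0.19) changed sign. Leaving out an array or a slide called 2102 to 4224 genes, 1021 to 2167 higher and 1081 to 2223 lower, with 2102 without slide 1, 2437 without slide 2, 3296 without slide 3, 3544 without the Sca1hi array of slide 1, 3461 without that of slide 3 and 3456 without the EryCP array of slide 1. Kit, which was not called, turned to -0.0024 with spike-in scaling and ranged from -0.12 to 0.13 as arrays or slides were left out, below 0 without the Sca1hi array of slide 2, the EryCP array of slide 1, slide 1 or slide 2. A fit on only the 6 arrays of Sca1hi and EryCP called 4133 (2112 and 2021), with 16 named calls lost. The other alternatives called 4351 to 6573 genes and cost at most 13 named genes their call. Medians of lists turned sign in at most 5 of 35 lists under any alternative. The cause of these changes was not tested, except that leaving out samples lowers the number of arrays fitted.

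Signal over background limits dim genes: in the deposited table and in normexp with backgrounds replaced, their differences shrank, as for S100a8 (3.84 and 3.08), Wfdc17 (-2.96 and -2.45) and Oasl2 (-1.95 and -1.53), and in the latter alone for Meis1 (-2.17). Groups of 3 arrays limit every p-value.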
